A study of Mus musculus with 16 samples.

Results

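The genes described here are the nuclear-encoded subunits of the mitochondrial respiratory chain and of ATP synthase in cultured fat progenitors of the mouse. They were taken by symbol: Ndufa, Ndufb, Ndufc, Ndufs or Ndufv with a number, Sdha to Sdhd, and every symbol that begins with Uqcr, with Cox4 to Cox8 or with Atp5. Of 85 matching symbols, 80 reached a normalized count of at least 10 in at least 4 libraries, among 14005 genes that did so and 27179 entries in the table. They comprised 35 genes of complex I, 3 of complex II, 7 of complex III, 16 of complex IV and 16 of complex V. Ndufa4 carries a complex I name and was counted with complex IV, where its protein sits. The remaining 3 are not subunits: Atp5s encodes coupling factor B, Cox7a2l a protein that joins complexes into supercomplexes, and Uqcrh-ps1 is a pseudogene. The 5 symbols that did not pass were Sdhd, with a mean of 5.33 normalized counts and 11.7 in its highest library, Atp5c1-ps with a mean of 1.5, Uqcr11 with 0.134, Cox7b2 with 0.0464, and Cox8c, which was listed at 0 throughout. Whether such low values reflect expression or the way reads were counted was not tested. Just inside the threshold stood Cox8b, at 10 or more in 7 libraries, and Cox6a2, in 9.

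Inguinal white fat of C57BL/6 mice was the source of the cells, which were isolated by flow cytometry as PDGFRb+ and split into DPP4_pos and DPP4_neg progenitors, called APCs in the labels. Each population was grown with 10% serum and received isoproterenol, an agonist of beta-adrenergic receptors, or PBS as vehicle for 4 h. The groups were DPP4_pos isoproterenol, DPP4_pos vehicle, DPP4_neg isoproterenol and DPP4_neg vehicle, with 4 libraries each and 16 in all, every library from 500 ng of total RNA. The labels give the isoproterenol dose as 10 mM, and whether that unit is right could not be checked. No label tells whether replicates came from separate mice or cultures, so each p-value reflects variation among libraries that may be technical only.

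Complex I takes electrons from NADH and complex II from succinate. Both pass them through ubiquinone to complex III, and cytochrome c carries them on to complex IV, which reduces oxygen. Complexes I, III and IV pump protons, and ATP synthase, complex V, lets them back to make ATP. A few core subunits are encoded in mitochondrial DNA, and the others come from nuclear genes whose promoters often carry sites for NRF1 and for GABPA, an ETS-family factor. In fat, beta-adrenergic signals act through cAMP, which activates the factor CREB, and respiratory capacity is a hallmark of thermogenic fat cells.

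Promoters from RefSeq (GRCm38.p6), 250 bases before to 50 after the annotated start, were found for 65 of the 80 members, 70 promoters in all. Searched on both strands, the NRF1 core CGCATGCG stood in 11.43% of the members' promoters, against 3.583% of the promoters of all genes tested. The ETS core CCGGAAG stood in 20%, against 16.41%, and the full CREB site TGACGTCA in 5.714%, against 3.016%. The shorter CREB core TGACG, which the full site contains, stood in 37.14%, against 29.98%. Median G+C was 57.5% in members and 60.67% in the promoters of all genes tested. A match is no proof of binding. The 4 promoters below are shown because 3 of them carry these matches and the fourth belongs to the member with the largest rise under isoproterenol as deposited. Capitals mark the CREB site in Ndufb2 (chr6:39592315-39592614, forward strand, at position -14 from the start) and in Uqcrfs1 (chr13:30545267-30545566, reverse strand, at -29). In Cox6a1 (chr5:115348909-115349208, reverse strand) they mark the NRF1 core at -161 and the ETS core, on the other strand, at -16. Atp5d (chr10:80142065-80142364, forward strand, 1 of 2 annotated starts) held none of these motifs, the shorter CREB core included. 
Ndufb2: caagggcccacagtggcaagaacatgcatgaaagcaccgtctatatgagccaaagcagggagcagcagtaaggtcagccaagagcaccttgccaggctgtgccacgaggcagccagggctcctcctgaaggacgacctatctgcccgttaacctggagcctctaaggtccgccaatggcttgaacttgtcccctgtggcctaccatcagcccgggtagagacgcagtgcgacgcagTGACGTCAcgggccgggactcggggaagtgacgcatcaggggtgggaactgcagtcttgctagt
Uqcrfs1: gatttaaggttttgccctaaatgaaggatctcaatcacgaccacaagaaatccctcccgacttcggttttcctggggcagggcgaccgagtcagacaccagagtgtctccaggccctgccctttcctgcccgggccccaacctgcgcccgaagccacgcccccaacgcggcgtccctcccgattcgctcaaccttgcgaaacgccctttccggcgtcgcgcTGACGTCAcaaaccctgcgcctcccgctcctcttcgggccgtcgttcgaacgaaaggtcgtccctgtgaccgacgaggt
Cox6a1: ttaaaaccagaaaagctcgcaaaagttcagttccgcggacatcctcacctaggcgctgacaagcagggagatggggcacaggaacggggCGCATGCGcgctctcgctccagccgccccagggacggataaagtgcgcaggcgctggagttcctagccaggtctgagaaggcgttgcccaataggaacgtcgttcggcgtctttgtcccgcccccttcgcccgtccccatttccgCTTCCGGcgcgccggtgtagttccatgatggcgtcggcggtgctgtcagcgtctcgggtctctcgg
Atp5d: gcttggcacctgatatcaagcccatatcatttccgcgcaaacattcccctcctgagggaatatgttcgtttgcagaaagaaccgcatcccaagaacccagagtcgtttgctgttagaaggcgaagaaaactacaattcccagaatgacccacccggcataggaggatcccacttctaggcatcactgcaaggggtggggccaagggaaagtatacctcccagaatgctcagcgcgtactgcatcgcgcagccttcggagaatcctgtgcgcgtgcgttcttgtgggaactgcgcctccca

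Values are normalized counts: reads per gene divided by a size factor of each library. The number of reads in genes was 9823799 to 16563940 in DPP4_pos isoproterenol, 17189166 to 20425332 in DPP4_pos vehicle, 10191846 to 22121496 in DPP4_neg isoproterenol and 16479650 to 28627223 in DPP4_neg vehicle libraries. Relative to the mean over all libraries, the total of normalized counts was 1.11 to 1.13 in DPP4_pos isoproterenol, 0.92 to 0.934 in DPP4_pos vehicle, 0.974 to 0.984 in DPP4_neg isoproterenol and 0.969 to 0.972 in DPP4_neg vehicle libraries. The DPP4_pos isoproterenol totals were thus the highest and the DPP4_pos vehicle totals the lowest. Every result was therefore also computed with the same total per library. That choice placed the median log2 difference of all genes between isoproterenol and vehicle in DPP4_pos at -0.32, against -0.05 as deposited, and between DPP4_pos and DPP4_neg under isoproterenol at -0.20, against -0.00.

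The sort was visible in Dpp4, at 2223 ± 97.7 and 3053 ± 186 normalized counts in DPP4_pos isoproterenol and vehicle libraries and 9.89 ± 2.29 and 21.1 ± 4.16 in DPP4_neg isoproterenol and vehicle libraries. Pdgfrb, the other sorting marker, averaged 2105 ± 163 in DPP4_pos isoproterenol and 7562 ± 367 in DPP4_pos vehicle libraries, a log2 difference of -1.85 ± 0.05, and 9028 ± 396 in DPP4_neg isoproterenol and 11315 ± 149 in DPP4_neg vehicle libraries, a difference of -0.33 ± 0.05. Adipocyte markers moved with both factors. Of 6 such markers 5 were tested, and all 5 were lower with isoproterenol in each population and lower in DPP4_pos under each treatment, while Lep averaged 0.375 over all libraries. Their sum was 2730.3 to 3126 in DPP4_pos isoproterenol, 11206 to 12859 in DPP4_pos vehicle, 13089 to 15909 in DPP4_neg isoproterenol and 39989 to 46219.7 in DPP4_neg vehicle libraries. Of 8 endothelial markers 6 were tested and 5 were higher in DPP4_pos under each treatment, with sums of 1176 to 1303 in DPP4_pos isoproterenol, 1111 to 1168 in DPP4_pos vehicle, 171 to 222 in DPP4_neg isoproterenol and 165 to 204 in DPP4_neg vehicle libraries. Macrophage and leukocyte markers, 8 tested of 10, summed to 672 to 1804 in DPP4_pos isoproterenol, 568 to 1343 in DPP4_pos vehicle, 739 to 1866 in DPP4_neg isoproterenol and 435 to 972 in DPP4_neg vehicle libraries. The part of these cells in the results below was not tested. In bulk libraries, fewer cells of a type and less RNA per cell cannot be told apart.

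As a set, the respiratory genes were lower in DPP4_pos than in DPP4_neg APCs under both treatments, whereas the isoproterenol difference of their sum in DPP4_pos depended on the scaling. The summed level of the 80 members was 102267 ± 2254 normalized counts in DPP4_pos isoproterenol and 90940.3 ± 890.2 in DPP4_pos vehicle libraries. In DPP4_neg it was 125377 ± 6533 with isoproterenol and 117032 ± 3469 with vehicle (mean ± SD, n = 4). The sum was -22.3% in DPP4_pos relative to DPP4_neg under vehicle and -18.4% under isoproterenol, with no overlap of libraries in either case. Set to the same total per library these became -18.8% and -28.8%, again without overlap. With isoproterenol in DPP4_pos the sum differed by 12.5% as deposited and by -6.96% with the same total, both without overlap. In DPP4_neg it differed by 7.13% and 6.22%, and the libraries overlapped under both.

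The complexes did not move alike with isoproterenol. Complex V was the highest sum, with 44110.1, 45826, 44317 and 45621 normalized counts in the DPP4_pos isoproterenol libraries, against 36199, 36375, 36284 and 35718 in DPP4_pos vehicle. In DPP4_neg it came to 49822, 54962, 54356 and 51549 with isoproterenol, against 45787, 47847, 46288 and 48289 with vehicle. All isoproterenol libraries lay above all vehicle libraries in both populations, and the group means differed by 24.4% in DPP4_pos and 11.9% in DPP4_neg. With the same total per library the differences were 2.94%, now with overlap, and 11%. Atp5b and Atp5a1 added most to the complex V sum. In DPP4_pos isoproterenol they averaged 15519.8 and 10131.5 normalized counts, against 10946.4 and 8234.5 in DPP4_pos vehicle. In DPP4_neg they averaged 18129.1 and 10667.8 with isoproterenol, against 16481.4 and 9741.8 with vehicle. Complex II was the opposite case, with 5413, 5734, 5591 and 5681 in DPP4_pos isoproterenol libraries, against 6339.9, 6458, 6521 and 6375 in DPP4_pos vehicle, and 6164, 6659, 7040.0 and 6270.1 in DPP4_neg isoproterenol libraries, against 7262, 7567, 7620.4 and 7574 in DPP4_neg vehicle. Its sum differed by -12.7% in DPP4_pos and -13% in DPP4_neg, without overlap, and -27.8% and -13.7% with the same total. In DPP4_neg that sum followed Sdha, whose log2 difference was -0.36 and called, beside 0.10 for Sdhb and -0.07 for Sdhc, neither called. The complex IV sum was 19.2% higher with isoproterenol in DPP4_pos, without overlap, and 10.4% higher in DPP4_neg, where the libraries overlapped. Its DPP4_pos value with the same total was -1.39%, with overlap. Complex III differed by 9.2% in DPP4_pos, without overlap, and by 2.87% in DPP4_neg, with overlap. Complex I differed by 0.785% in DPP4_pos and 4.32% in DPP4_neg, both with overlap. Scaled to the same total, complexes III and I were lower in DPP4_pos isoproterenol libraries than in DPP4_pos vehicle without overlap (-9.66% and -16.6%).

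**Figure D1:**
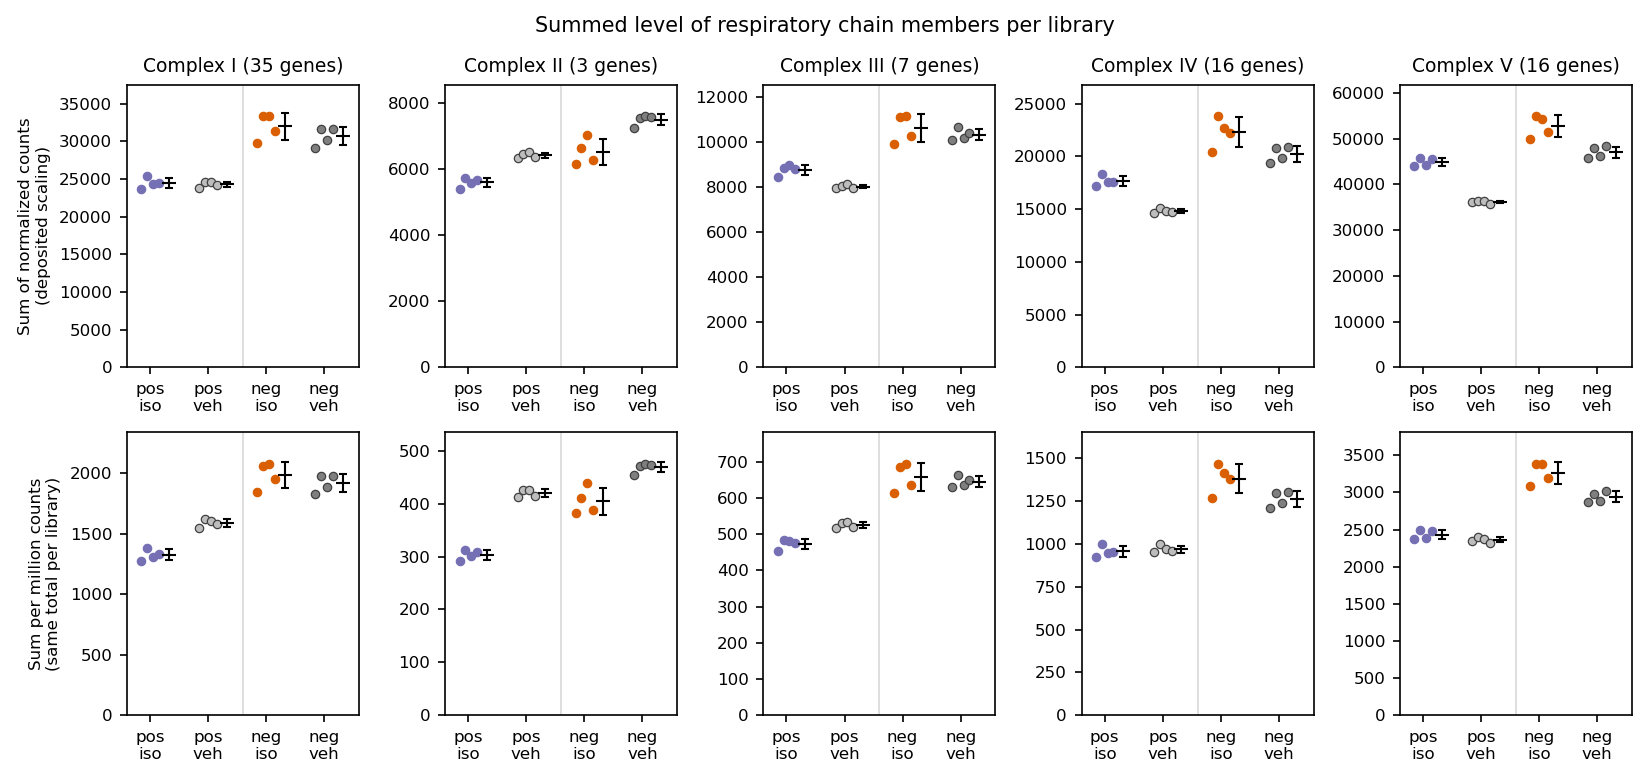
Summed normalized counts of the members of each complex in every library, as deposited (upper row) and set to the same total per library (lower row). Points are single libraries of DPP4_pos (pos) and DPP4_neg (neg) APCs with isoproterenol (iso) or vehicle (veh), and the bars give mean ± SD over 4 libraries. The DPP4_pos groups lie below their DPP4_neg counterparts in all 5 complexes, and the complex II sum is lower with isoproterenol in both populations, in DPP4_neg through Sdha.

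Under vehicle, 72 of the 80 members were lower in DPP4_pos than in DPP4_neg, 0 were higher and 8 were not called (limma with Benjamini-Hochberg adjustment over all genes tested, adjusted p under 0.05). Among all genes tested 35% were lower and 31.6% higher in that comparison. The lower calls were 32 of 35 in complex I, 3 of 3 in complex II, 7 of 7 in complex III, 15 of 16 in complex IV and 15 of 16 in complex V. Those of complex IV include Cox4i2, Cox6a2, Cox7a1 and Cox8b. These passed the filter through the DPP4_neg libraries, so that their direction was built into the selection. The members' median log2 difference was -0.36, against -0.01 over all genes. On the scale of equal totals, 68 members were lower and 0 higher, against 30.3% and 36.8% of all genes. The 8 members not called were Atp5c1, Atp5s, Cox7a2l, Ndufa4, Ndufa5, Ndufb11, Ndufb5 and Uqcrh-ps1. For 73 members the 4 DPP4_pos vehicle libraries did not overlap with the 4 DPP4_neg vehicle libraries, as was the case for 67.3% of all genes tested.

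Uqcrq (chr11:53427922-53430831, GRCm38), which encodes a small ubiquinone-binding subunit of complex III, had 937, 921, 971 and 874 normalized counts in DPP4_pos vehicle libraries, against 1707, 1813, 1670.0 and 1788 in DPP4_neg vehicle. No DPP4_pos value came near a DPP4_neg one, and the log2 difference was -0.91 ± 0.05, adjusted p = 2.14e-13. Cox6a1 (chr5:115345652-115348958), the broadly expressed form of a complex IV subunit, had 1792, 1761, 1746 and 1772 in DPP4_pos vehicle libraries, against 2972, 3005, 2968 and 3282 in DPP4_neg vehicle. Its groups were also far apart, with a difference of -0.79 ± 0.04, adjusted p = 6.37e-13. Ndufs8, a core iron-sulphur subunit of complex I, stood at 423, 402, 417 and 400.5 in DPP4_pos vehicle libraries, against 619, 703, 655 and 681 in DPP4_neg vehicle, a difference of -0.69 ± 0.06, adjusted p = 1.31e-09. The catalytic beta subunit of ATP synthase, Atp5b (chr10:128083307-128090388), was the member with the highest counts. It had 11038, 10893, 10993 and 10862 in DPP4_pos vehicle libraries, against 15922, 16848, 16161 and 16995 in DPP4_neg vehicle, and the difference was -0.59 ± 0.03, adjusted p = 5.16e-13. Atp5d, the delta subunit of the same enzyme, differed by -0.71 ± 0.06, Atp5g1 by -0.68 ± 0.07, Cox5a by -0.60 ± 0.05 and Cox4i1 by -0.52 ± 0.05 on the log2 scale. Several other core subunits differed by less: Ndufs1 by -0.16 ± 0.04, Sdha by -0.19 ± 0.03, Uqcrc1 by -0.30 ± 0.04 and Atp5a1 by -0.24 ± 0.03, all of them lower in DPP4_pos. Ndufa4 had 1987, 2051, 2006 and 1939 in DPP4_pos vehicle libraries, against 1922, 2122, 2106 and 2062 in DPP4_neg vehicle. These values overlapped, and no difference was called (-0.04 ± 0.05, adjusted p = 0.452).

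Under isoproterenol, 71 of 80 members were lower in DPP4_pos, 0 were higher and 9 were not called, beside 37% of all genes lower and 37.4% higher. The lower calls were 33 of 35 in complex I, 2 of 3 in complex II, 4 of 7 in complex III, 14 of 16 in complex IV and 16 of 16 in complex V. Those of complex IV again include Cox4i2, Cox6a2, Cox7a1 and Cox8b, whose direction was built into the selection. Under equal totals 78 members were lower and 0 higher, against 50% and 26.2% of all genes, and the members' median was -0.56 beside -0.20 for all genes, where the deposited scaling gave -0.37 and -0.00. Uqcrq had 1079.8, 1173, 1103 and 1084 in DPP4_pos isoproterenol libraries, against 1721, 2027, 1945 and 1844 in DPP4_neg isoproterenol, and differed by -0.76 ± 0.05, adjusted p = 4.48e-12. Cox6a1 had 2042, 2253, 2175 and 2135 in DPP4_pos isoproterenol libraries, against 3227, 3747, 3656 and 3543 in DPP4_neg isoproterenol, and differed by -0.72 ± 0.04, adjusted p = 2.72e-12. Both were apart in all libraries under this treatment as well. The 9 members not called were Cox7b, Ndufa1, Ndufa12, Ndufa4, Sdha, Uqcrb, Uqcrc2, Uqcrfs1 and Uqcrh-ps1. Of these, Ndufa12 is an accessory subunit of complex I; its difference of 0.17 ± 0.08, adjusted p = 0.0536, was called higher under 3 other settings and without DPP4_pos isoproterenol replicate 3, DPP4_neg isoproterenol replicate 2, or DPP4_neg vehicle replicate 1 or 4. The calls for Atp5a1 (-0.07 ± 0.03) and Ndufs1 (-0.10 ± 0.04) were lost in fits with the compared groups alone. Both were also lost without DPP4_neg isoproterenol replicate 3, and that of Atp5a1 without DPP4_pos isoproterenol replicate 1 or 3 or DPP4_neg isoproterenol replicate 2.

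**Figure D2:**
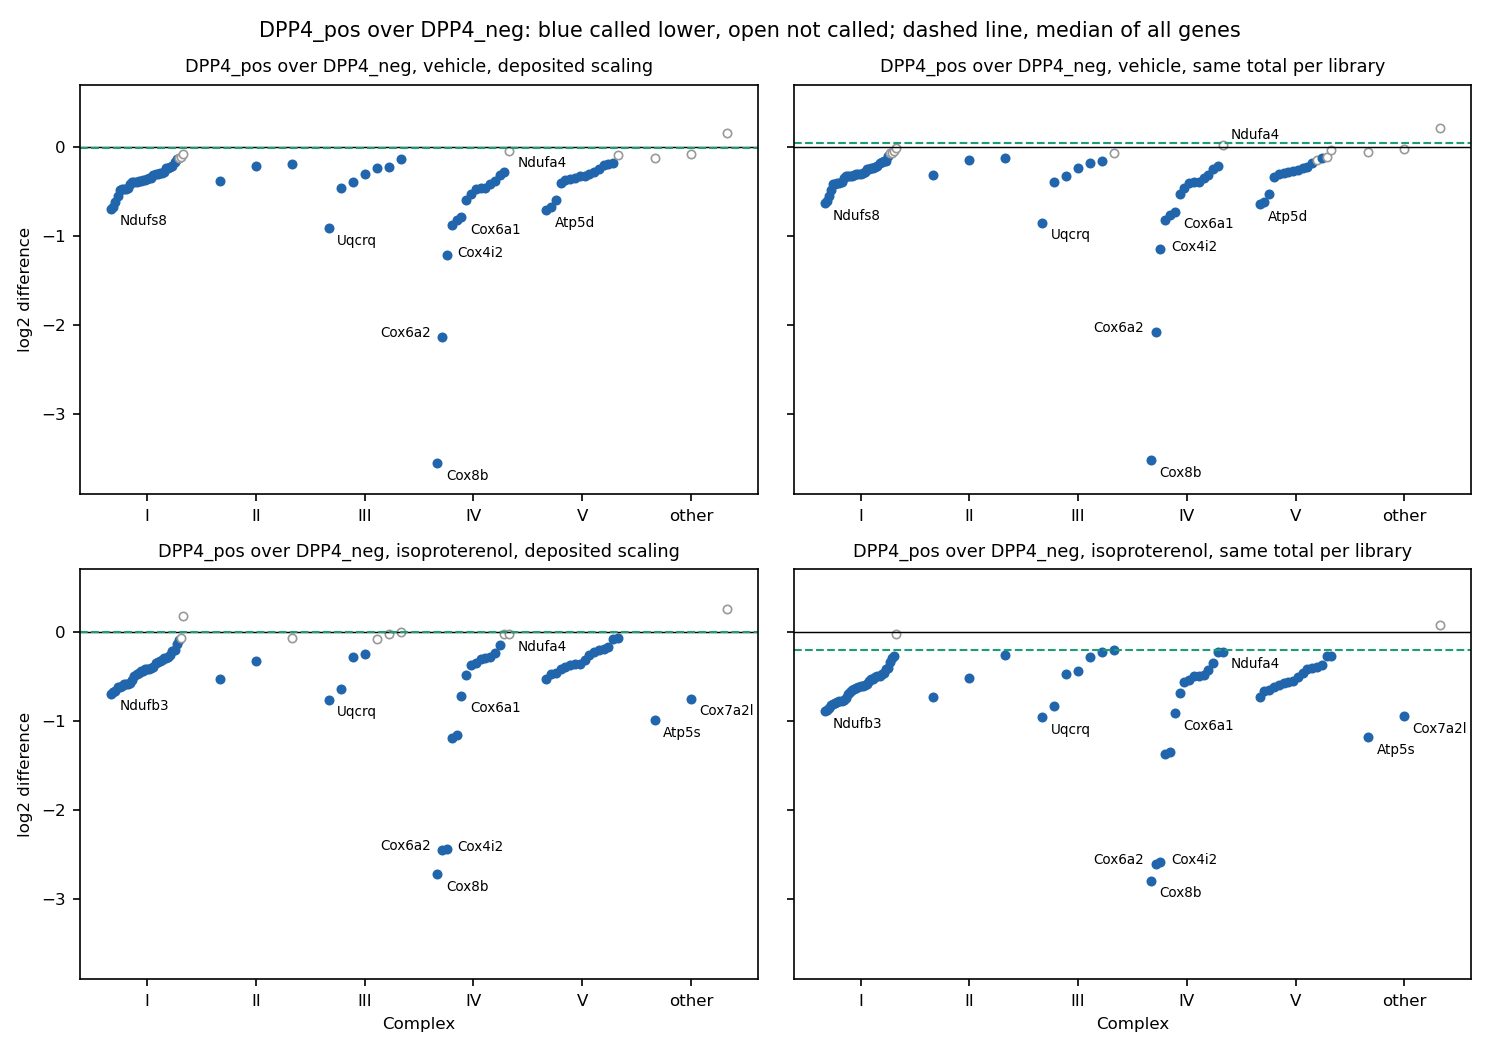
Log2 difference of DPP4_pos over DPP4_neg for each of the 80 members, by complex, under vehicle (upper row) and isoproterenol (lower row), as deposited (left) and with the same total per library (right). Blue points were called lower, open points were not called, and the dashed line marks the median of all genes tested. No member was called higher in any panel, and Cox8b and Cox6a2, which passed the filter through the DPP4_neg libraries, lie lowest.

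With isoproterenol in DPP4_pos, 31 of 80 members rose, 16 fell and 33 were not called, where 39.4% of all genes were higher and 43.3% lower. In DPP4_neg, 28 rose, 12 fell and 40 were not called, beside 32.1% and 33.6% of all genes. The 31 rises include Uqcrh-ps1 and the 12 falls Cox8b, whose directions were favoured by the filter. The rises of members were close to the share among all genes in both populations, and the falls were fewer. The members' median log2 difference was 0.04 in DPP4_pos and 0.10 in DPP4_neg, beside -0.05 and -0.02 over all genes. On equal totals, 5 members rose and 47 fell in DPP4_pos, against 27.6% and 56% of all genes, with a median of -0.23 for members and -0.32 for all genes. In DPP4_neg 26 rose and 13 fell under that scaling, against 31% and 34.5% of all genes. Called higher under both scalings in DPP4_pos were Atp5b, Atp5d, Atp5g1, Cox5a and Ndufa12, and all 16 lower calls were also lower with the same total. Atp5o, Cox6c and Ndufv2, called higher as deposited, were called lower with the same total. In DPP4_neg 26 higher and 12 lower calls were shared between the scalings. The 2 populations share no library in these comparisons: 19 members rose in both and 8 fell in both, beside 25.9% and 26.4% of all genes, and Uqcrfs1 was called higher in DPP4_pos and lower in DPP4_neg. Isoproterenol and vehicle libraries did not overlap for 43 members in DPP4_pos and 21 in DPP4_neg, where the same held for 77.8% and 58.9% of all genes.

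**Figure D3:**
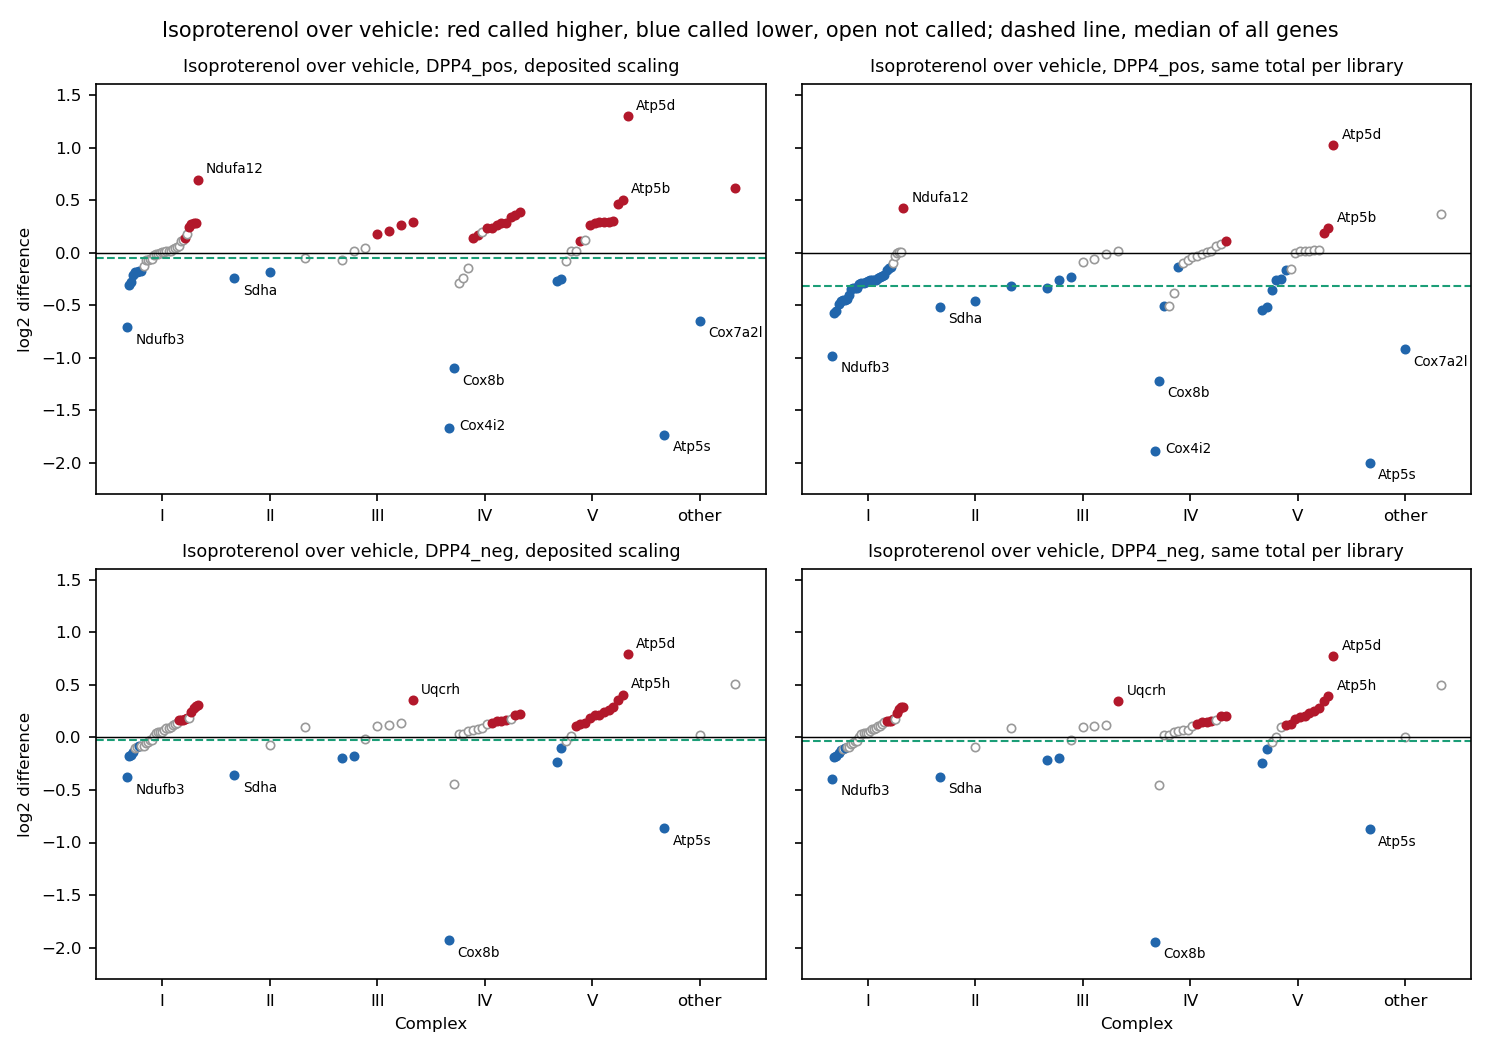
Log2 difference of isoproterenol over vehicle for each of the 80 members, by complex, in DPP4_pos (upper row) and DPP4_neg (lower row), as deposited (left) and with the same total per library (right). Red points were called higher, blue points lower, open points neither, and the dashed line marks the median of all genes tested. Atp5d lies highest in every panel; in DPP4_pos, 31 members lie above 0 as deposited and below 0 with the same total.

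In complex V the number of rises in DPP4_pos depended on the scaling. Of its 16 members 10 rose and 2 fell in DPP4_pos, and 12 rose and 2 fell in DPP4_neg. Over all genes 39.4% rose and 43.3% fell in DPP4_pos, and 32.1% and 33.6% in DPP4_neg. These shares serve for each complex below too. Under the same total per library, 3 were higher, Atp5b, Atp5d and Atp5g1, and 6 lower in DPP4_pos, and 11 were higher and 2 lower in DPP4_neg. Atp5d (chr10:80138698-80145828) encodes the delta subunit of the central stalk that turns inside the F1 head. It had 1444, 1627, 1422 and 1548 normalized counts in DPP4_pos isoproterenol libraries, against 612, 580.4, 626 and 634 in DPP4_pos vehicle. In DPP4_neg it had 1733, 2016, 1500.1 and 1712 with isoproterenol, against 1014, 1009, 987 and 993 with vehicle. The lowest treated library stood well above the highest vehicle library in each population. The log2 difference was 1.30 ± 0.06, adjusted p = 2.02e-14, in DPP4_pos and 0.79 ± 0.06, adjusted p = 2.9e-10, in DPP4_neg, and 1.02 and 0.78 with the same total. Atp5c1 (chr2:10056030-10080510), the gamma subunit of the same stalk, went the other way. It had 1746, 1842, 1754 and 1920.5 in DPP4_pos isoproterenol libraries, against 2175, 2232, 2243 and 2103 in DPP4_pos vehicle, a difference of -0.27 ± 0.04, adjusted p = 5.05e-06. In DPP4_neg the values were 2143, 2372, 2046 and 2147 with isoproterenol, against 2288, 2398, 2342 and 2303 with vehicle; they overlapped, and the difference was -0.10 ± 0.04, adjusted p = 0.0405. The third stalk subunit, Atp5e, was not called in DPP4_pos (0.12 ± 0.08) and rose in DPP4_neg (0.29 ± 0.08); the difference between the responses was not called (-0.17 ± 0.12, adjusted p = 0.195).

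Atp5b had 15455, 15689, 15224 and 15711 in DPP4_pos isoproterenol libraries, against 11038, 10893, 10993 and 10862 in DPP4_pos vehicle, a rise of 0.50 ± 0.03, adjusted p = 3.66e-12. DPP4_neg libraries had 17270.2, 18823, 18467 and 17956 with isoproterenol, against 15922, 16848, 16161 and 16995 with vehicle, a rise of 0.14 ± 0.03, adjusted p = 0.000884. Libraries were apart in both populations, and with the same total the differences were 0.23 and 0.12. Atp5a1, the alpha subunit, rose by 0.30 ± 0.03 in DPP4_pos and 0.13 ± 0.03 in DPP4_neg. The c subunit of the membrane ring is encoded by a set of genes, Atp5g1, Atp5g2 and Atp5g3, whose mature proteins are the same. They did not move together. Atp5g1 had 619, 671, 639 and 620.1 in DPP4_pos isoproterenol libraries, against 447, 432, 496 and 477 in DPP4_pos vehicle, and rose by 0.46 ± 0.07 there and by 0.24 ± 0.07 in DPP4_neg. Atp5g3 rose by 0.28 ± 0.04 in DPP4_pos and 0.21 ± 0.04 in DPP4_neg. Its mean level per kilobase of exon was 1420.2, beside 362 for Atp5g2 and 139 for Atp5g1. In normalized counts the means were 3098 for Atp5g3, 607 for Atp5g2 and 681 for Atp5g1. The order of Atp5g1 and Atp5g2 thus depends on the exon lengths used, 4912 and 1675 bases. Atp5g2 had 481, 495, 499.8 and 469.8 in DPP4_pos isoproterenol libraries, against 557, 579, 585 and 589.7 in DPP4_pos vehicle, with no overlap, and fell there (-0.25 ± 0.07) and in DPP4_neg (-0.23 ± 0.07). In DPP4_neg it had 660.0, 673, 500.0 and 681 with isoproterenol, against 725, 764, 728 and 719 with vehicle, and without DPP4_neg isoproterenol replicate 3 the difference was -0.13, still called. Within libraries, the ratio of Atp5g1 to Atp5g2 was 1.31 ± 0.0353 in DPP4_pos isoproterenol, against 0.801 ± 0.0423 in DPP4_pos vehicle, and 1.41 ± 0.105 in DPP4_neg isoproterenol, against 1.01 ± 0.0533 in DPP4_neg vehicle. Among other members of the enzyme, Atp5h, of the outer stalk, rose by 0.27 ± 0.07 in DPP4_pos and 0.41 ± 0.07 in DPP4_neg, and Atp5mpl, a small membrane subunit, by 0.29 ± 0.07 and 0.36 ± 0.07. Atp5h shares 47.9% of its 50-base words with other genes, so its counts are uncertain. Atp5f1, also of the outer stalk, rose by 0.29 ± 0.04 in DPP4_pos and 0.19 ± 0.04 in DPP4_neg, and Atp5o, which links that stalk to the head, by 0.11 ± 0.04 and 0.11 ± 0.04. Atp5j, of the outer stalk, and Atp5k, a small membrane subunit, were called in neither population.

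In complex IV 10 of 16 members rose and 2 fell in DPP4_pos, and 6 rose and 1 fell in DPP4_neg. With equal totals 1 was higher, Cox5a, and 4 were lower in DPP4_pos, while 6 were higher and 1 lower in DPP4_neg. Cox5a, a subunit on the matrix side, rose by 0.39 ± 0.05, adjusted p = 2.43e-07, in DPP4_pos, where it had 1095, 1188, 1134 and 1174 in isoproterenol libraries, against 839, 910.4, 882 and 883 in vehicle. The broadly expressed forms Cox4i1, Cox6a1 and Cox6b1 rose by 0.17 ± 0.05, 0.28 ± 0.04 and 0.34 ± 0.05 in DPP4_pos, and by 0.14 ± 0.05, 0.21 ± 0.04 and 0.17 ± 0.05 in DPP4_neg. The DPP4_neg call of Cox4i1 was lost without isoproterenol replicate 2 or 3 or vehicle replicate 1 of that population (0.11 in each case). Ndufa4 rose by 0.23 ± 0.05 and 0.22 ± 0.05. Cox8a rose in DPP4_pos (0.26 ± 0.04) and was not called in DPP4_neg (0.04 ± 0.04). Under equal totals, the DPP4_pos differences of Cox4i1, Cox8a and Ndufa4 turned to -0.10, -0.01 and -0.04, none of them called. Cox5b and Cox7b rose in DPP4_pos by 0.29 ± 0.05 and 0.35 ± 0.05, and Cox6c and Cox7c by 0.14 ± 0.04 and 0.24 ± 0.08. In DPP4_neg Cox6c rose by 0.16 ± 0.04, and Cox5b, Cox7b and Cox7c were not called (0.07 ± 0.05, 0.07 ± 0.05 and 0.12 ± 0.08).

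The tissue-restricted forms of complex IV subunits were scarce, and lowest in DPP4_pos. Cox4i2, Cox6a2, Cox7a1 and Cox8b passed the filter through the DPP4_neg libraries, where 7 of 8 reached 10 for Cox8b and 8 of 8 for the others, so a difference between populations was built into their selection. For Cox8b these were 4 vehicle and 3 isoproterenol libraries, so its selection also favoured a fall with isoproterenol in DPP4_neg. Cox8b, the form of heart, muscle and brown fat, had 10.5, 16.9, 3.15 and 11.8 in DPP4_neg isoproterenol libraries, against 41.2, 27.3, 42 and 44 in DPP4_neg vehicle. That was 47 reads against 222, a ratio per depth of 0.297 with a 95% exact counting interval of 0.212 to 0.408, and the limma difference was -1.93 ± 0.45, adjusted p = 0.000829. In DPP4_pos it had 2 reads with isoproterenol, against 12 with vehicle, a ratio of 0.297 (0.0323 to 1.33), and the call there (-1.10 on the log2 scale) was lost under 5 other settings and without any of 4 libraries, DPP4_pos isoproterenol replicates 3 and 4 and DPP4_pos vehicle replicates 1 and 4. Cox6a2, the heart and muscle form of its subunit, had 26 reads in DPP4_pos vehicle, against 146 in DPP4_neg vehicle, a ratio of 0.209 (0.132 to 0.319). With isoproterenol it had 15 reads in DPP4_pos, against 114 in DPP4_neg, a ratio of 0.196 (0.106 to 0.337). Cox4i2, a form known from lung and low oxygen, had 2.25, 3.48, 7.31 and 1.88 in DPP4_pos isoproterenol libraries, against 12.5, 9.66, 15.1 and 14.4 in DPP4_pos vehicle. That was 10 reads against 61, a ratio of 0.292 (0.133 to 0.574), and a limma difference of -1.67 ± 0.31, adjusted p = 4.17e-05. These intervals cover counting error only. Cox6b2, known as the testis form, was lower in DPP4_pos under vehicle (-0.82 ± 0.15) and under isoproterenol (-1.15 ± 0.15). Cox7a1 differed by -0.88 ± 0.31 under vehicle, where without DPP4_pos vehicle replicate 4 the value was -0.53 and not called, and by -1.19 ± 0.31 under isoproterenol. The adipocyte markers were also lower in DPP4_pos under each treatment, as given above. They fell with isoproterenol in both populations. Of the isoforms, Cox8b was called lower with isoproterenol in both populations and Cox4i2 in DPP4_pos only. Cox6a2, Cox6b2 and Cox7a1 were called in neither. In DPP4_pos, Cox6a2 had 15 reads against 26, a ratio of 1.03 (0.506 to 2.01). Cox7a1 had 24 against 53 there, a ratio of 0.807 (0.476 to 1.33). Any relation of the isoforms to the adipocyte markers was not tested. Of the 8 muscle markers Pax7, Myog and Ckm were at 0 in every library, and Acta1 had 18 ± 2.11 and 48.2 ± 7.32 in DPP4_pos isoproterenol and vehicle libraries and 382 ± 59.6 and 817 ± 121 in DPP4_neg isoproterenol and vehicle libraries. The muscle markers did not all go the same way. Of the 3 tested, 2 were lower and 1 higher in DPP4_pos under vehicle, and 2 lower and 0 higher under isoproterenol. Summed, the muscle markers came to 90.2 to 122 in DPP4_pos isoproterenol, 241 to 287 in DPP4_pos vehicle, 664 to 829.5 in DPP4_neg isoproterenol and 1120.1 to 1447 in DPP4_neg vehicle libraries, and their part in the isoform values was not tested.

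In complex III 4 of 7 members rose and 0 fell in DPP4_pos, but 0 were higher and 3 lower with the same total per library. In DPP4_neg 1 rose and 2 fell under both scalings, and 3 were higher and 2 lower with edgeR, DESeq2 or TMM. Uqcrfs1 (chr13:30540312-30545316) encodes the Rieske iron-sulphur protein, through which electrons leave ubiquinol, and its promoter carries the CREB site printed above. It had 1107, 1119, 1139.9 and 1186 in DPP4_pos isoproterenol libraries, against 964, 1043, 1020.3 and 988 in DPP4_pos vehicle. DPP4_neg isoproterenol libraries had 1126, 1192, 1281 and 1049, against 1273, 1379, 1321 and 1284 in DPP4_neg vehicle. The treated libraries were all higher in DPP4_pos, while in DPP4_neg the treated libraries lay lower, with 1 of them just above the lowest vehicle library. The differences were 0.18 ± 0.05, adjusted p = 0.00229, and -0.18 ± 0.05, adjusted p = 0.00324, and with the same total -0.09, not called, and -0.19. Uqcrc2, a core protein, was not called in DPP4_pos (0.02 ± 0.03) and fell in DPP4_neg (-0.20 ± 0.03), and its partner Uqcrc1 was called in neither (0.04 ± 0.04 and -0.01 ± 0.04). Uqcrh, the hinge protein, rose by 0.21 ± 0.05 in DPP4_pos and 0.36 ± 0.05 in DPP4_neg. Uqcrq rose in DPP4_pos (0.26 ± 0.05) and narrowly missed the threshold in DPP4_neg (0.11 ± 0.05, adjusted p = 0.0513).

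In complex II the catalytic subunit fell in both populations. Sdha (chr13:74322255-74350240), the flavoprotein that oxidizes succinate, had 3208, 3314, 3288 and 3396 in DPP4_pos isoproterenol libraries, against 3855, 3889.6, 3949 and 3918 in DPP4_pos vehicle. DPP4_neg isoproterenol libraries had 3359.9, 3448, 3661 and 3363, against 4249.6, 4484, 4499.9 and 4540.2 in DPP4_neg vehicle. Every treated library lay below every vehicle library in both populations, and the differences were -0.24 ± 0.03, adjusted p = 8.38e-07, and -0.36 ± 0.03, adjusted p = 3.31e-09. Sdhb, the iron-sulphur subunit, was called in neither population (-0.05 ± 0.05 in DPP4_pos and 0.10 ± 0.05 in DPP4_neg). Sdhc, a membrane anchor, fell in DPP4_pos (-0.19 ± 0.05) and was not called in DPP4_neg (-0.07 ± 0.05). The ratio of Sdha to Sdhb within libraries was 3.48 ± 0.134 in DPP4_pos isoproterenol, against 3.98 ± 0.146 in DPP4_pos vehicle, and 2.52 ± 0.126 in DPP4_neg isoproterenol, against 3.48 ± 0.0528 in DPP4_neg vehicle, without overlap in either pair.

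In complex I the direction in DPP4_pos depended on the scaling. Of 35 members 6 rose and 8 fell in DPP4_pos, and 9 rose and 5 fell in DPP4_neg. Under equal totals 1 was higher, Ndufa12, and 29 were lower in DPP4_pos, while 8 of 9 higher and 5 of 5 lower calls held in DPP4_neg. Ndufa12 (chr10:94199035-94221440), an accessory subunit of the matrix arm, had 295, 328, 278 and 291 in DPP4_pos isoproterenol libraries, against 175, 179.8, 189 and 191 in DPP4_pos vehicle, and rose by 0.69 ± 0.08, adjusted p = 5.24e-08. In DPP4_neg it had 266, 292, 237 and 263 with isoproterenol, against 230.3, 259, 241 and 290.3 with vehicle, which overlapped (0.05 ± 0.08, adjusted p = 0.587). Ndufb3 (chr1:58586397-58595964), an accessory subunit of the membrane arm, had the largest fall of the complex in both populations. It had 285, 319, 270.4 and 304 in DPP4_pos isoproterenol libraries, against 462, 473, 500.4 and 490.0 in DPP4_pos vehicle, a difference of -0.71 ± 0.06, adjusted p = 2.51e-10. DPP4_neg isoproterenol libraries had 468, 465, 503 and 474, against 602, 675, 581 and 633 in DPP4_neg vehicle, a difference of -0.38 ± 0.06, adjusted p = 6.8e-06. Its libraries were apart in both populations. The core subunits near the NADH site, Ndufv1 and Ndufs1, were not called in DPP4_pos (-0.07 ± 0.05 and -0.02 ± 0.04) and fell in DPP4_neg (-0.16 ± 0.05 and -0.08 ± 0.04). The DPP4_neg call of Ndufs1 was lost under 5 other settings, without any 1 of 6 DPP4_neg libraries (all but isoproterenol replicate 3 and vehicle replicate 1), and without DPP4_pos vehicle replicate 3 or 4. Ndufs7, a core subunit beside the ubiquinone site, fell in DPP4_pos (-0.21 ± 0.06) and in DPP4_neg (-0.14 ± 0.06). Ndufb2, with a CREB site at its start, rose by 0.28 ± 0.06 in DPP4_pos and 0.30 ± 0.06 in DPP4_neg. The other members with a full CREB site, Ndufa10 and Ndufa11, had -0.02 ± 0.05 and -0.06 ± 0.06 in DPP4_pos, neither called, and -0.10 ± 0.05, not called, and 0.17 ± 0.06, called higher, in DPP4_neg. Also rising in DPP4_pos were Ndufa1 (0.24 ± 0.06), Ndufb6 (0.27 ± 0.06) and Ndufv2 (0.14 ± 0.05), the last a core subunit beside the NADH site. The others that fell there were Ndufb4 (-0.28 ± 0.08), Ndufb10 (-0.18 ± 0.05), Ndufc2 (-0.18 ± 0.07), Ndufs3 (-0.17 ± 0.05), Ndufs4 (-0.18 ± 0.05) and Ndufv3 (-0.31 ± 0.04). In DPP4_neg rises were also found for Ndufa2, Ndufa3, Ndufa13, Ndufb5, Ndufb7 and Ndufb11, between 0.16 and 0.31, and Ndufb4 fell (-0.17 ± 0.08).

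**Figure D4:**
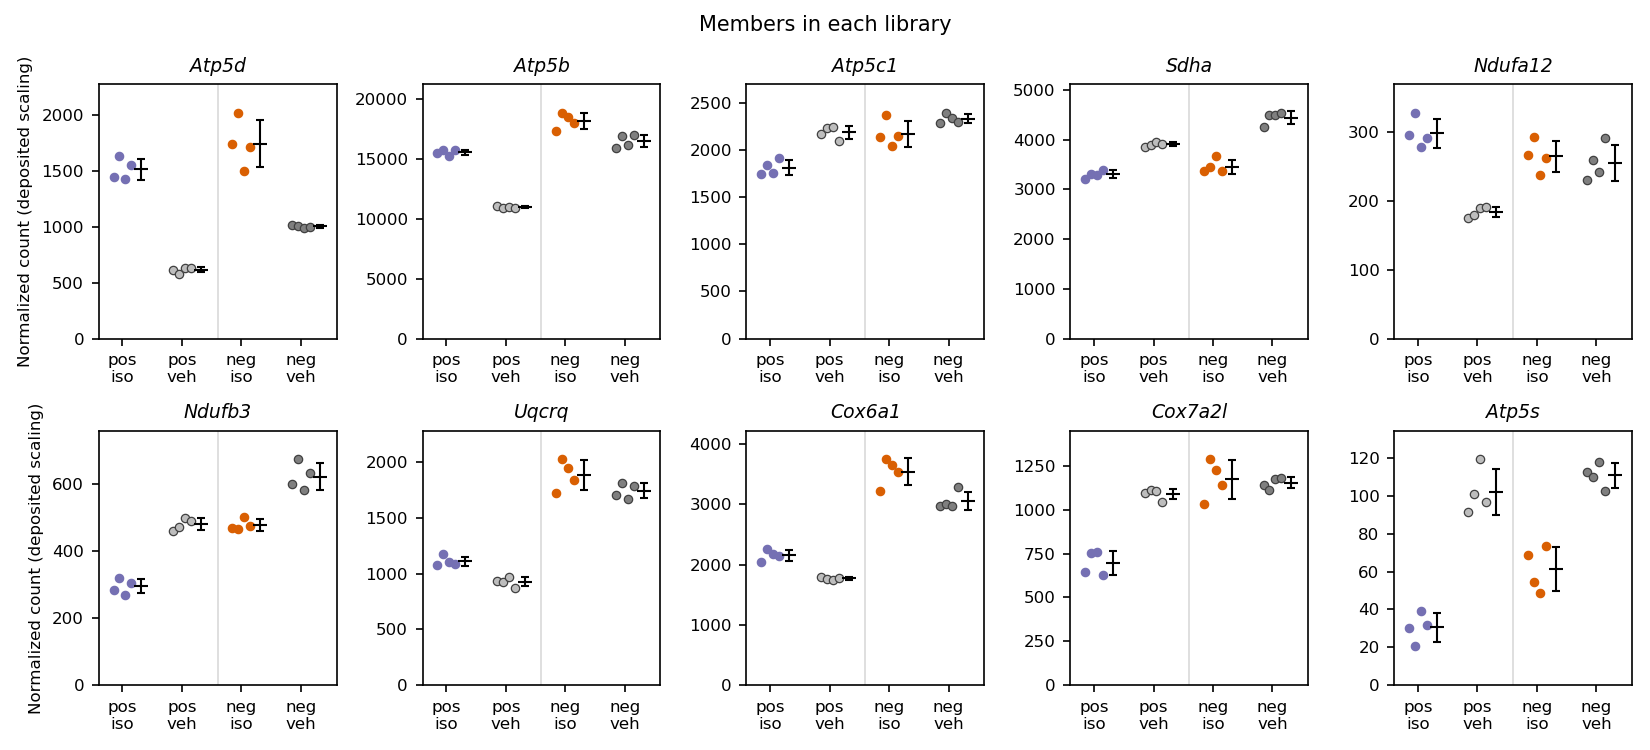
Normalized counts of 10 members in every library, each on its own axis from 0. Points are single libraries of DPP4_pos (pos) and DPP4_neg (neg) APCs with isoproterenol (iso) or vehicle (veh), with mean ± SD over 4 libraries. Atp5d is higher and Sdha lower with isoproterenol in both populations, while Cox7a2l is lower with isoproterenol in DPP4_pos and overlaps in DPP4_neg.

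Of the members that are not subunits, Atp5s fell in both populations. It (chr12:69724913-69744665) had 30.3, 20.9, 39.5 and 31.9 in DPP4_pos isoproterenol libraries, against 91.4, 101, 119.6 and 97.2 in DPP4_pos vehicle, a difference of -1.73 ± 0.16, adjusted p = 2.2e-09. DPP4_neg isoproterenol libraries had 68.8, 54.3, 48.9 and 73.5, against 113, 110.0, 118 and 103 in DPP4_neg vehicle, a difference of -0.86 ± 0.16, adjusted p = 8.61e-05. Treated and vehicle libraries were apart in both populations. Cox7a2l (chr17:83501917-83514333) had 645, 751, 761 and 629.5 in DPP4_pos isoproterenol libraries, against 1093, 1112, 1105 and 1044 in DPP4_pos vehicle, a difference of -0.65 ± 0.06, adjusted p = 4.26e-09. In DPP4_neg the values, 1034, 1288, 1227 and 1143 with isoproterenol, against 1142, 1115, 1176 and 1181 with vehicle, overlapped (0.02 ± 0.06, adjusted p = 0.796). Uqcrh-ps1 had 39 reads in DPP4_pos isoproterenol, against 44 in DPP4_pos vehicle, a ratio per depth of 1.58 (95% exact counting interval 0.999 to 2.49). It passed the threshold as deposited (0.61 ± 0.28, adjusted p = 0.0458) and not with edgeR, DESeq2, TMM or the same total (0.36). The call was also lost with a pseudocount of 0.5, no filter, the compared groups alone or a replicate block. It held with a pseudocount of 5 or quantile normalization. Counts reached 10 in 4 isoproterenol and 1 vehicle library of DPP4_pos, and in 4 and 2 of DPP4_neg, so its selection favoured a rise. Uqcrh-ps1 shares 18.3% of its 50-base words with other genes.

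The response to isoproterenol differed between the populations for 27 of 80 members: 15 responded more positively in DPP4_pos and 12 more negatively, beside 31.6% and 31% of all genes (interaction term in limma with Benjamini-Hochberg adjustment). Under equal totals these counts were 2 and 56, beside 18.3% and 48.8% of all genes, and the median over members was -0.28, the same as over all genes. Called under both scalings were Atp5d and Ndufa12 on the positive side and all 12 on the negative side, while Sdha was called positive as deposited and negative with the same total. Without DPP4_neg isoproterenol replicate 1, 20 members instead of 12 were called negative. Among members with a mean of at least 50 the largest positive differences were those of Ndufa12 (0.64 ± 0.11, adjusted p = 4.07e-05), Atp5d (0.51 ± 0.09), Atp5b (0.37 ± 0.05), Uqcrfs1 (0.36 ± 0.07) and Cox7b (0.28 ± 0.07). On equal totals these were 0.38, 0.25, 0.11, 0.10 and 0.02, of which the first 2 were called. On the negative side stood, by the same rule, Atp5s (-0.87 ± 0.23, adjusted p = 0.00248), Cox7a2l (-0.67 ± 0.09, adjusted p = 1.39e-06), Ndufb3 (-0.33 ± 0.08), Ndufc2 (-0.28 ± 0.10) and Ndufb11 (-0.25 ± 0.07), with -1.13, -0.93, -0.59, -0.54 and -0.51 under the same total. Ndufc2 lost its call when any of 3 libraries was left out (-0.24 to -0.20): DPP4_neg isoproterenol replicate 3, DPP4_neg vehicle replicate 1 or DPP4_pos isoproterenol replicate 1. By complex the positive and negative calls were 3 and 7 in complex I, 1 and 0 in complex II, 2 and 0 in complex III, 5 and 1 in complex IV and 4 and 2 in complex V.

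Ratios between complexes within a library do not involve the scaling. The ratio of complex V to complex I was 1.86, 1.81, 1.82 and 1.86 in DPP4_pos isoproterenol libraries, against 1.52, 1.48, 1.48 and 1.47 in DPP4_pos vehicle. In DPP4_neg it was 1.67, 1.65, 1.63 and 1.64 with isoproterenol, against 1.57, 1.51, 1.53 and 1.53 with vehicle. The isoproterenol libraries were higher without overlap in both populations. The ratio of complex IV to complex I was likewise higher, 0.723 ± 0.0039 in DPP4_pos isoproterenol, against 0.611 ± 0.00596 in DPP4_pos vehicle, and 0.698 ± 0.0157 in DPP4_neg isoproterenol, against 0.659 ± 0.00305 in DPP4_neg vehicle. That of complex II to complex I was lower, 0.229 ± 0.00248 in DPP4_pos isoproterenol, against 0.264 ± 0.00192 in DPP4_pos vehicle, and 0.204 ± 0.00573 in DPP4_neg isoproterenol, against 0.245 ± 0.00671 in DPP4_neg vehicle, again without overlap. Complex III to complex I was apart in DPP4_pos (0.349 to 0.369 with isoproterenol, against 0.327 to 0.334 with vehicle) and overlapped in DPP4_neg. Within ATP synthase, Atp5d to Atp5c1 was 0.827, 0.884, 0.811 and 0.806 in DPP4_pos isoproterenol libraries, against 0.281, 0.26, 0.279 and 0.301 in DPP4_pos vehicle. It was 0.809, 0.85, 0.733 and 0.797 in DPP4_neg isoproterenol libraries, against 0.443, 0.421, 0.422 and 0.431 in DPP4_neg vehicle. The vehicle populations thus stood apart in this ratio, and the isoproterenol populations overlapped. The ratio of Cox7a2l to Cox8a was 0.341 ± 0.0402 in DPP4_pos isoproterenol, against 0.638 ± 0.0221 in DPP4_pos vehicle, and 0.516 ± 0.0416 in DPP4_neg isoproterenol, against 0.52 ± 0.0183 in DPP4_neg vehicle. A ratio shows unequal change and not which of its genes changed.

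**Figure D5:**
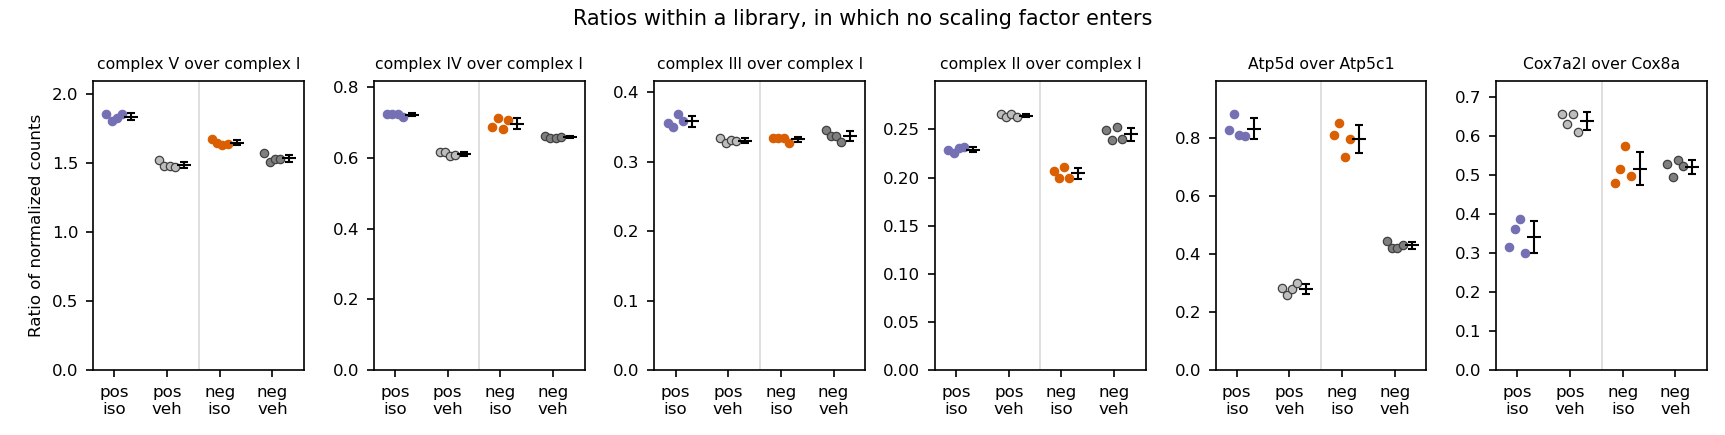
Ratios of summed normalized counts between complexes, and of single members, within each library; each axis starts at 0. Points are single libraries of DPP4_pos (pos) and DPP4_neg (neg) APCs with isoproterenol (iso) or vehicle (veh), with mean ± SD over 4 libraries. With isoproterenol the ratio of the complex V sum, to which Atp5b and Atp5a1 add most, to complex I is higher in both populations. That of the complex II sum, to which Sdha adds most, to complex I is lower with isoproterenol in both populations.

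Per kilobase of exon, the order of the group means was not the same in the populations. Exon length here covers all annotated exons of a gene, 4237 bases for Atp5b and 702 for Cox6a1. Their longest coding transcripts have 1916 and 571 bases, and the order changes with the length used. Cox6a1 was highest in DPP4_neg, at 5048 normalized counts with isoproterenol and 4354 with vehicle, followed by Atp5b at 4279 and 3889.9. In DPP4_pos isoproterenol Atp5b stood at 3663, Cox8a at 3307, Atp5a1 at 3232 and Cox6a1 at 3064. In DPP4_pos vehicle Cox8a stood at 2759, Atp5a1 at 2627, Atp5b at 2584 and Cox6a1 at 2518. At the low end in DPP4_pos was Cox8b, at 1.99 with isoproterenol and 7 with vehicle, beside 29.4 and 107 in DPP4_neg. Cox7a2, the broadly expressed counterpart of Cox7a1, averaged 46.1 over all libraries, and whether that reflects expression or the counting was not tested. The counts of several members are uncertain because their transcripts share 50-base words with other genes, 84.8% of the words in Atp5l, 50.3% in Atp5o, 43.4% in Uqcrb, 39.7% in Ndufs3, 32% in Cox5a and 26.2% in Ndufa12. Atp5d, Sdha, Atp5s, Uqcrfs1 and Uqcrq shared none. Whether counting used the strand is not given in the sources used here, and genes overlap on the other strand over 39% of the exons of Ndufb6, 35.6% of Atp5o, 30% of Ndufa13 and 3.53% of Atp5d.

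Of the 13 subunits encoded in mitochondrial DNA, 10 were tested. With isoproterenol 7 rose and 0 fell in DPP4_pos, and 0 rose and 2 fell in DPP4_neg. Under the same total, 3 rose in DPP4_pos and 2 fell in DPP4_neg. Between the populations, 0 were higher and 2 lower in DPP4_pos under vehicle, or 1 and 0 with the same total, and 7 were higher and 0 lower under isoproterenol, or 3 and 0 with the same total. Among them ND4, a core subunit of complex I, had 21969 ± 983 normalized counts in DPP4_pos isoproterenol, against 15534 ± 674 in DPP4_pos vehicle (0.50 ± 0.14), and 15630.3 ± 4402 in DPP4_neg isoproterenol, against 18928 ± 1472 in DPP4_neg vehicle (-0.33 ± 0.14). In DPP4_neg isoproterenol, replicate 3 had 9127 and the other 3 libraries 16721 to 18376, so that group's mean rests on 1 library. Beside these counts and those below, 39.4% of all genes rose and 43.3% fell in DPP4_pos, and 32.1% and 33.6% in DPP4_neg. Under equal totals the shares were 27.6% and 56%, and 31% and 34.5%. Under vehicle 31.6% of all genes were higher and 35% lower in DPP4_pos, and under isoproterenol 37.4% and 37%. With the same total per library these shares were 36.8% and 30.3% under vehicle, and 26.2% and 50% under isoproterenol. Of the respiratory subunits that the symbol rule leaves out, Cyc1, cytochrome c1 of complex III, was lower in DPP4_pos under vehicle (-0.44 ± 0.04) and rose with isoproterenol by 0.48 ± 0.04 in DPP4_pos and 0.09 ± 0.04 in DPP4_neg. Ndufab1, the acyl carrier protein of complex I, rose by 0.34 ± 0.06 and 0.21 ± 0.06. Factors that assemble complex I, 17 tested, counted 5 risen and 7 fallen in DPP4_pos, or 2 and 11 under equal totals, and 2 and 5 in DPP4_neg under both scalings. Ndufaf4 rose by 1.57 ± 0.06 in DPP4_pos and 0.38 ± 0.06 in DPP4_neg, and Nubpl, which inserts iron-sulphur clusters, fell in both (-1.76 ± 0.16 and -1.20 ± 0.16). Of 22 assembly factors of complex IV tested, 10 rose and 10 fell in DPP4_pos, or 6 and 12 under equal totals, and 6 rose and 5 fell in DPP4_neg, or 6 and 6. Sco1, which delivers copper, rose by 0.99 ± 0.08 and 0.35 ± 0.08, and Cox15, needed for heme A, fell in both (-0.96 ± 0.05 and -0.33 ± 0.05). Those of complexes II and III, 10 tested, counted 3 risen and 5 fallen in DPP4_pos, or 1 and 6 under equal totals, and 3 and 3 in DPP4_neg under both scalings. Those of ATP synthase, 5 tested, counted 1 and 2 in DPP4_pos, or 1 and 4, and 2 and 2 in DPP4_neg under both. All 5 factors of ATP synthase were lower in DPP4_pos under both treatments, or 4 of 5 under vehicle with the same total.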

How the data were processed

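RNA of 16 libraries was sequenced, 4 in each of 4 groups taken from the labels. Each deposited value is a signal, namely the authors' read count of a gene after division by a size factor of its library, as the column names and the values show. Tools listed in the submitters' processing notes are DESeq2 1.6.3, featureCounts 1.4.6, HISAT2 2.0.1 and Trim Galore 0.4.1, with the builds GRCm38 and mm10; the sources used here give no settings, annotation or strand. In each library the values were multiples of a step, so that 100% of the 280334 values that exceed 0 came out as whole reads, within 0.001. The 958 entries without a symbol held 0.0926% of counts, and 26 symbols turned into dates were restored.

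Of 27179 entries, 14005 with at least 10 in at least 4 libraries were tested on log2(value + 1) with limma 3.58.1 (R 4.3.3; mean-variance trend, 4 group means over all 16 libraries) and Benjamini-Hochberg adjustment; log2 differences are given ± SE, understate changes of low genes, and are called at adjusted p under 0.05. Tests on whole reads used edgeR 4.0.16 and DESeq2 1.42.0: edgeR called 5266 genes higher and 6315 lower with isoproterenol in DPP4_pos and 4709 and 4834 in DPP4_neg. The alternatives were the same total per library, TMM, quantile normalization, pseudocounts of 0.5 and 5, no filter and a filter at 50, compared groups only, a replicate block, and each library left out. The tests were also run on simulated counts in which a small part of the genes changed, in DPP4_neg isoproterenol only. Such counts do not probe the choice of scaling. Named members were chosen isoform pairs and core subunits, plus up to 5 called members per direction and comparison with the largest difference and a mean of at least 50; other members named in the text were chosen after their values were seen. Sums and ratios carry no test. The naming rule also covers 1 member that is not reported here, though it is counted in the totals. Members and lists were chosen with earlier results of these data known. Gene positions are from RefSeq (GRCm38.p6), exon lengths and shared words from GENCODE (GRCm38).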

Additional observations from a re-analysis of the deposited data

Results flagged for a closer look

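Among 188 groups of 4 libraries examined, for 41 named members and the sums, 10 had 1 library far from the other 3, where chance gives about 1 in 20 groups. In DPP4_pos isoproterenol, Uqcrc1 stood lowest in replicate 1, at 1704 normalized counts, with the others at 1824 to 1840. In DPP4_pos vehicle, Atp5a1 stood highest in replicate 2, at 8302 beside 8210 to 8214, and Cox6a2 highest in replicate 4, at 9.29 beside 3.58 to 4.46. In DPP4_neg isoproterenol, Atp5g2 stood lowest in replicate 3, at 500.0 beside 660.0 to 681. In DPP4_neg vehicle, replicate 4 stood highest for Atp5a1 at 9855 beside 9687 to 9714, for Atp5mpl at 854.6 beside 771 to 778 and for Cox6a1 at 3282 beside 2968 to 3005, and lowest for Cox7a1 at 13.5 beside 20.4 to 21.4. In the same group, Cox8b stood lowest in replicate 2, at 27.3 beside 41.2 to 44.0, and the complex II sum lowest in replicate 1, at 7262 beside 7567 to 7620.

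For 16 named members the isoproterenol response differed between the populations by the interaction term of limma. Up to 5 per direction were named through this same test, so the count is no result about the named members. Over all genes tested, 31.6% responded more positively in DPP4_pos and 31% more negatively. DPP4_pos minus DPP4_neg, the log2 difference was 0.64 for Ndufa12, 0.51 for Atp5d, 0.37 for Atp5b, 0.36 for Uqcrfs1, 0.28 for Cox7b, 0.23 for Cox8a, 0.22 for Atp5g1, 0.17 for Cox6b1, 0.17 for Atp5a1 and 0.12 for Sdha. It was -1.23 for Cox4i2, -0.87 for Atp5s, -0.67 for Cox7a2l, -0.33 for Ndufb3, -0.28 for Ndufc2 and -0.25 for Ndufb11. Of these, Ndufa12 and Atp5d kept a positive call with the same total per library, and the 6 negative ones kept a negative call. The calls of Atp5g1, Cox6b1 and Sdha were lost with TMM or edgeR and when 1 library was left out, in 9, 6 and 8 of 16 cases, and that of Cox4i2 with a pseudocount of 5 (-0.69).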

How the results depend on the processing

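Counts of members called moved by over 1.5 times mainly with the scaling. In DPP4_pos, isoproterenol raised 31 members, against 14 with quantile normalization and 5 with the same total per library, and lowered 16, against 32 and 47. The response was more positive in DPP4_pos for 15 members, against 9 with TMM, 9 with edgeR, 3 with quantile normalization and 2 with the same total, and more negative for 12, against 20, 20, 36 and 56. Under isoproterenol 0 members were higher in DPP4_pos by limma (0 also by edgeR and DESeq2), and 1, Ndufa12, with a filter at 50, with quantile normalization and with the replicate block. The log2 ratio of the summed level of all members with the same total was -0.104 for isoproterenol in DPP4_pos (0.169 as deposited), -0.300 between populations under vehicle (-0.364) and -0.491 under isoproterenol (-0.294).

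Leaving out 1 library at a time gave 29 to 33 higher and 14 to 17 lower for isoproterenol in DPP4_pos, 23 to 36 and 8 to 12 in DPP4_neg, 10 to 17 and 9 to 20 for the difference of responses, 0 and 68 to 73 between populations under vehicle, and 0 to 1 and 67 to 71 under isoproterenol. The summed level ranged from 0.157 to 0.182 and 0.0763 to 0.130 for isoproterenol in DPP4_pos and DPP4_neg, and from -0.381 to -0.351 and -0.325 to -0.271 between populations under vehicle and isoproterenol.

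In DPP4_pos, 31 of the 80 members lay above 0 as deposited and below 0 with the same total. Among calls of the 41 named members, log2 differences that changed sign were, for isoproterenol in DPP4_pos with quantile normalization, Atp5a1 -0.22, Atp5b -7.71e-05, Atp5g3 -0.0394, Cox4i1 -0.17, Cox6a1 -0.0193, Cox8a -0.0262, Ndufa4 -0.0946 and Uqcrfs1 -0.0163, and with the same total Cox4i1 -0.10, Cox8a -0.0120, Ndufa4 -0.0409 and Uqcrfs1 -0.0928. For the difference of responses they were Atp5a1 -0.24, Atp5b -0.12, Cox6b1 -0.0446 and Sdha -0.17 with quantile normalization, and Atp5a1 -0.0921, Atp5g1 -0.0424, Cox6b1 -0.0871, Cox8a -0.0350 and Sdha -0.14 with the same total. The differences of responses of Atp5g1, Cox6b1 and Sdha were also not called with TMM or edgeR. The cause was not tested.

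The libraries showed no clear sign of pairing by replicate number, and the labels do not tell whether they were paired. Deviations of same-numbered libraries correlated at -0.231 to 0.131, above 0.1 in 1 of 24 pairs, and 6 of 16 libraries were closest to their own number. With a replicate block, 31 and 17 members were higher and lower with isoproterenol in DPP4_pos, 31 and 13 in DPP4_neg, 16 and 15 for the difference of responses, 0 and 74 between populations under vehicle and 1 and 71 under isoproterenol, and all 109 named calls held.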

Other observations

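Electron carriers and other oxidoreductases, taken as a list, were mostly lower with isoproterenol, though cytochrome c rose. Over all genes tested, 39.4% rose and 43.3% fell in DPP4_pos, or 27.6% and 56% with the same total per library. In DPP4_neg 32.1% rose and 33.6% fell, or 31% and 34.5%. Of 18 electron carriers and other oxidoreductases 3 rose and 13 fell in DPP4_pos, or 3 and 15 with the same total per library, and 3 rose and 12 fell in DPP4_neg under both scalings. Those that rose in both were Cycs, cytochrome c, by 1.55 ± 0.06 in DPP4_pos and 0.65 ± 0.06 in DPP4_neg, Gpd2, the mitochondrial glycerol-3-phosphate dehydrogenase, by 1.39 ± 0.05 and 0.91 ± 0.05, and Pdss1, which makes the tail of ubiquinone, by 1.14 ± 0.10 and 0.38 ± 0.10. Cycs had 758 ± 21.2 normalized counts in DPP4_pos isoproterenol, against 259 ± 11.1 in DPP4_pos vehicle, and 701 ± 17.1 in DPP4_neg isoproterenol, against 448 ± 39.2 in DPP4_neg vehicle. Etfa, which takes electrons from fatty acid oxidation, fell (-1.23 ± 0.04 and -0.78 ± 0.04), as did Coq8a, of ubiquinone synthesis (-3.39 ± 0.15 and -2.40 ± 0.15). In the TCA cycle, 8 of 18 genes rose and 6 fell in DPP4_pos, or 5 and 12 with the same total, and 3 rose and 10 fell in DPP4_neg, or 3 and 11. Mdh2, malate dehydrogenase, rose by 0.66 ± 0.04 and 0.39 ± 0.04, and Idh2 fell (-1.37 ± 0.04 and -0.54 ± 0.04). Under vehicle, 17 of the 18 TCA genes were lower and 0 higher in DPP4_pos than in DPP4_neg, or 15 and 0 with the same total. Over all genes tested 35% were lower and 31.6% higher there, or 30.3% and 36.8%.

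Of 19 transcriptional regulators of respiratory genes tested, 11 rose and 5 fell with isoproterenol in DPP4_pos, or 8 and 7 with the same total per library, and 6 rose and 5 fell in DPP4_neg. Over all genes tested, 39.4% rose and 43.3% fell in DPP4_pos, or 27.6% and 56%, and 32.1% rose and 33.6% fell in DPP4_neg. Ppargc1a, the coactivator PGC-1alpha, had 45.2 ± 2.72 in DPP4_pos isoproterenol, against 39.3 ± 5.53 in DPP4_pos vehicle (0.21 ± 0.13, not called). It had 114 ± 11.7 in DPP4_neg isoproterenol, against 51.4 ± 4.46 in DPP4_neg vehicle, and rose by 1.13 ± 0.13. The difference between these responses was -0.93 ± 0.18. Its relative Pprc1 rose by 1.10 ± 0.04 in DPP4_pos and 0.28 ± 0.04 in DPP4_neg, Esrra by 0.85 ± 0.06 and 0.34 ± 0.06, and Nrf1 by 0.48 ± 0.08 in DPP4_pos, while in DPP4_neg it was not called (-0.12 ± 0.08). Gabpa fell in both (-0.23 ± 0.05 and -0.26 ± 0.05), and Tfam, the mitochondrial transcription factor, was called in neither (0.01 ± 0.07 and -0.05 ± 0.07). No relation between these regulators and the respiratory genes was tested.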
